A study of Homo sapiens with 72 samples.

Results

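Ruc_Low cells are the 20% with the lowest drug fluorescence among the rucaparib-positive cells of treated PEO1 cultures, collected by flow sorting. Their RNA after 24 h of treatment was set against their RNA after 2 h. They were chosen by gate and treatment and make up 18 of the 72 libraries of the study, 9 at 24 h and 9 at 2 h. Each replicate number had 3 libraries at each time, which were summed, giving 3 Ruc_Low samples at 24 h and 3 at 2 h among 24 samples in all. PEO1 cells are an established line derived from high-grade serous carcinoma of the ovary, and rucaparib, an inhibitor of poly(ADP-ribose) polymerase (PARP) that is itself fluorescent, was given at 8.5 µM. The other groups were each sampled at 24 h and at 2 h with 9 libraries a time. They were Ruc_High (the brightest 20% of the rucaparib-positive cells), Ruc_Total (treated and not sorted) and Vehicle (DMSO, not sorted). Cells for sorting had to be lifted off the dish and run through the instrument, while the unsorted ones went directly by scraping into lysis buffer. No vehicle-treated cells were sorted, so sorting and drug cannot be told apart in a comparison of Ruc_Low with Vehicle at one time. The low gate is a share of the rucaparib-positive cells present at each time: the cells collected in it at 24 h were a separate collection from those at 2 h. These are bulk RNA samples, in which fewer cells of a kind and less RNA per cell cannot be told apart.

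PARP enzymes bind DNA strand breaks and mark nearby proteins with chains of ADP-ribose, and an inhibitor such as rucaparib both blocks this reaction and holds the enzyme on DNA. Cells that carry such damage into replication can stop in the G2 phase, before mitosis, where a set of genes for cyclin B, spindle and kinetochore proteins reaches its highest RNA level. Cells short of amino acids or under other translational stress use a separate programme, the integrated stress response, in which the transcription factor ATF4 raises genes of amino acid metabolism and glutathione turnover.

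The Ruc_Low libraries held 27747511 to 36152646 estimated reads at 24 h and 17391033 to 35502036 at 2 h, the lowest being 1 library of replicate 2 at 2 h. The 19 markers of serous ovarian epithelium summed to 14889 to 18474 CPM (a gene's reads scaled to library size by TMM) in the 3 samples at 24 h and 17927 to 22519 CPM in the 3 samples at 2 h, and 16 of the 19 were above 1 CPM in every sample. Markers of other cells that a tumour could hold were low. The 13 immune genes together gave 7.36 to 11.1 CPM at 24 h and 7.03 to 11.7 CPM at 2 h, with CD3D and NKG7 at 0 in all 6 samples. The 12 stromal and endothelial genes gave 41.6 to 49.7 CPM at 24 h and 41.7 to 42.6 CPM at 2 h, most of it from FAP and CDH5. The replicates were made on different days, and every p-value below rests on 3 replicates per time.

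Few genes differed between the times in Ruc_Low in the main fit, which did not pair samples by replicate number, and more did with pairing. Of 19834 genes tested with edgeR's quasi-likelihood test, 29 (0.146%) were higher at 24 h and 23 (0.116%) were lower at a Benjamini-Hochberg adjusted p below 0.05, together 52 genes or 0.262%. Of the 52, 48 were protein coding, all 52 moved the same way in each of the 3 replicate pairs, and in none did the 24 h and 2 h samples overlap. Over all genes tested, the 3 samples at 24 h were all above the 3 at 2 h for 1451 genes (7.32%) and all below for 1185 (5.97%), and the median log2 fold change was -0.0022. At an unadjusted p below 0.05, 912 genes (4.6%) were higher and 761 (3.84%) lower, and DESeq2 called 165 (0.832%) higher and 138 (0.696%) lower. When the replicate number was fitted as a block, 262 genes (1.32%) were higher and 194 (0.978%) lower, and these included all 52. Of the 52, DESeq2 also called 52, limma on log2(TPM + 1) 14, an edgeR fit with an effective length offset 8, one on the 12 sorted samples 10 and one on the 6 Ruc_Low samples alone 0. The count depended on the replicates in the fit: without replicate 2 edgeR called 0 genes higher and 0 lower, with 591 at an unadjusted p below 0.05, against 15 higher and 18 lower when replicate 1 was left out. With replicate 3 left out 3 were higher and 0 lower. The sign of all 52 was the same in each of the 17 alternative settings. These settings refit the same samples or a part of them, so the shared sign is not separate evidence.

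The genes that rose included several that ATF4 is known to raise. Of these CHAC1 is on the stress list used here, whereas ADM2, CTH and GTPBP2 are not and were grouped with it after their values were seen. CHAC1, a glutathione-degrading enzyme and ATF4 target (chromosome 15, 40952962 to 40956519, plus strand, GRCh38), was at 18, 31.3 and 30.7 CPM at 24 h, against 9.89, 7.40 and 7.76 CPM at 2 h. The groups did not overlap, and the lowest 24 h sample, replicate 1, was the one whose 2 h partner was highest. Its log2 fold change was 1.68 (SE 0.22, edgeR adjusted p = 0.00154), a 3.19-fold increase with a 95% interval of 2.30 to 4.43. ADM2, a secreted peptide of the calcitonin family, was at 8.25, 15 and 13.7 CPM at 24 h and 4.71, 4.53 and 5.72 CPM at 2 h, again without overlap and again lowest in replicate 1 at 24 h. Its log2 fold change was 1.31 (SE 0.21, edgeR adjusted p = 0.00782). CTH, which makes cysteine from cystathionine, was at 8.57, 9.10 and 9.33 CPM at 24 h, against 6.35, 3.76 and 5.15 CPM at 2 h. The 24 h samples lay close together and the spread was in the 2 h samples. CTH changed by 0.82 on the log2 scale (SE 0.17, edgeR adjusted p = 0.0447). GTPBP2, a GTPase that acts in the rescue of stalled ribosomes in mice, was at 38.1, 49.7 and 49 CPM at 24 h and 27.4, 26.8 and 31.4 CPM at 2 h. GTPBP2 changed by 0.68 on the log2 scale (SE 0.10, edgeR adjusted p = 0.00329).

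**Figure D1:**
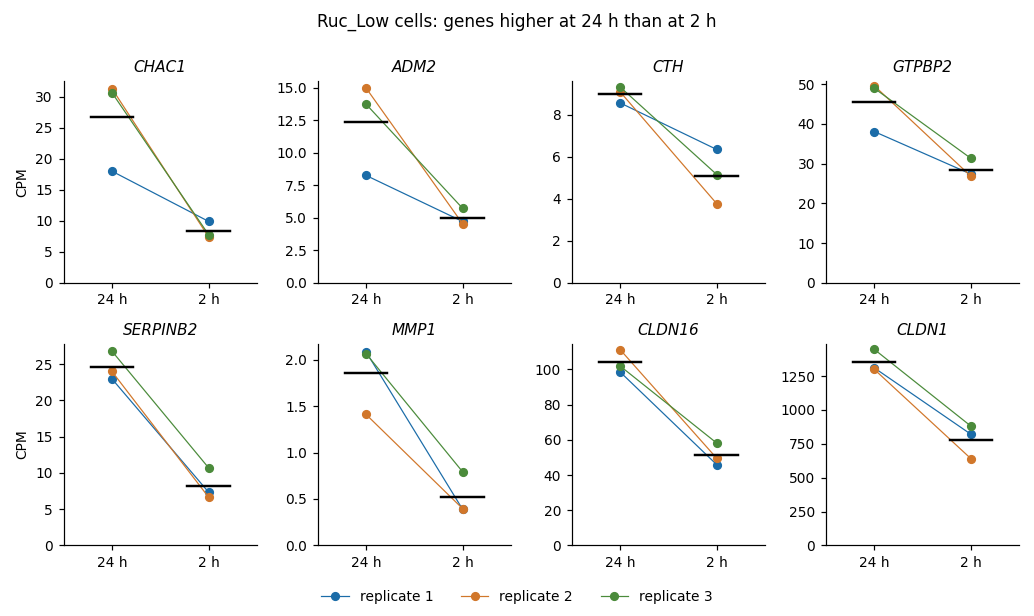
CPM (from 0) of 8 genes higher at 24 h, 1 panel a gene, with each Ruc_Low sample as a point at 24 h (left) or 2 h (right), a coloured line joining samples of the same replicate and a black bar at each mean. In each panel the points at 24 h lie above those at 2 h, as for CHAC1, whose lowest 24 h sample was 18 CPM and whose highest 2 h sample was 9.89 CPM.

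In a list of 32 genes of the integrated stress response, 30 were tested, of which 1 (CHAC1) rose and 0 fell, with 6 higher and 2 lower when the replicate block was fitted. The median log2 fold change of the 30 was 0.34, against -0.0022 over all genes. Of the 30, 23 were above 0. By pairs of the same replicate the list's median was 0.18, 0.55 and 0.31 for replicates 1, 2 and 3. NUPR1, a stress-induced chromatin protein, was at 16, 25.3 and 22.6 CPM at 24 h and 11.1, 12.9 and 10.2 CPM at 2 h, without overlap. It missed the threshold without the block (edgeR adjusted p = 0.0565, and 0.00114 with it). The other members called higher only with the block were PSPH, the last enzyme of serine synthesis, with a log2 fold change of 0.58, and CEBPG, a dimer partner of ATF4, with 0.71. Likewise called were SLC38A2, a carrier of neutral amino acids, with 0.72, and ALDH1L2, a mitochondrial folate enzyme, with 0.86. DDIT3, the transcription factor CHOP, was at 24.4, 28.2 and 21 CPM at 24 h and 21.1, 9.85 and 8.74 CPM at 2 h. The groups overlapped by the 2 h sample of replicate 1, and DDIT3 did not pass (edgeR adjusted p = 0.265). The RNA of ATF4 itself, which is controlled largely at translation, was at 134, 114 and 108 CPM at 24 h and 141, 99.2 and 122 CPM at 2 h, with no separation of the groups. SLC7A5, a leucine carrier that is also an ATF4 target, ran the other way, at 738, 933 and 968 CPM at 24 h against 991, 1334 and 1575 CPM at 2 h. Its log2 fold change was -0.56 (edgeR adjusted p = 0.292, and 0.0403 with the block). ATF5, a relative of ATF4, was the other member lower with the block, with a log2 fold change of -0.31. In the other groups the list's median was 0.12 in Ruc_High, 0.35 in Ruc_Total and -0.13 in Vehicle.

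Genes of the cell surface and its surroundings made up another group. MMP1, a collagenase, had the largest fold change of the named genes, but at a low level: 2.09, 1.41 and 2.07 CPM at 24 h and 0.388, 0.395 and 0.792 CPM at 2 h. This was a 3.52-fold increase (95% interval 2.43 to 5.10, edgeR adjusted p = 0.00253). SERPINB2, an inhibitor of the urokinase plasminogen activator (chromosome 18, 63871692 to 63903890, plus strand), was at 23, 24 and 26.8 CPM at 24 h, against 7.34, 6.66 and 10.7 CPM at 2 h. Its log2 fold change was 1.58 (SE 0.18, edgeR adjusted p = 0.00112), a 2.99-fold increase. These were the 2 of 26 tested members called, both higher, in a list of ligands of the epidermal growth factor receptor and of extracellular proteases and their inhibitors, whose median log2 fold change was 0.05. With the block 4 of the 26 were higher and 0 lower.

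A pair of claudins, the membrane proteins of tight junctions, rose together. CLDN1 was the most abundant gene to rise among those named, at 1312, 1301 and 1448 CPM at 24 h and 821, 641 and 881 CPM at 2 h. That is a log2 fold change of 0.79 (SE 0.13, edgeR adjusted p = 0.0101). CLDN16 was at 98.6, 111 and 102 CPM at 24 h and 45.9, 49.5 and 58.2 CPM at 2 h. CLDN16 changed by 1.02 on the log2 scale (SE 0.13, edgeR adjusted p = 0.00136). The genes are neighbours on chromosome 3 and point away from each other: CLDN1 starts at position 190322475 on the minus strand and CLDN16 on the plus strand, with 65 bases between the starts.

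The other named genes that rose had no shared role that a list here covered. BACE1, the beta-secretase that cleaves the amyloid precursor protein, was at 16.9, 18.9 and 17 CPM at 24 h and 9.82, 9.67 and 10.8 CPM at 2 h (log2 fold change 0.80, edgeR adjusted p = 0.0452). HOXB9, a homeobox transcription factor, was at 7.94, 9.85 and 10.5 CPM at 24 h and 5.24, 3.15 and 5.55 CPM at 2 h, a log2 fold change of 1.02. MEX3A, an RNA-binding protein, was at 12.1, 16.2 and 14.6 CPM at 24 h and 7.71, 7.93 and 9.58 CPM at 2 h, a log2 fold change of 0.77. In all 3 the times stood apart without overlap. PHYKPL, an enzyme that breaks down phosphohydroxylysine, was at 36.4, 41 and 34.1 CPM at 24 h against 23.3, 24.2 and 23.6 CPM at 2 h. ZNF343, a zinc finger protein, was at 30.7, 30.8 and 30.5 CPM at 24 h against 20.6, 17.5 and 21.6 CPM at 2 h, with hardly any spread among its 24 h samples. Some calls rest on uncertain counting: GOLGA8K belongs to a family of near-identical copies. ENSG00000272405, ENSG00000272668, ENSG00000274425 and ATP6V0E2-AS1 are annotated as antisense genes, for which strand-specific counting is not stated in the sources used here.

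Among the genes that fell, those of mitosis formed the largest listed group. CCNB1, the cyclin that drives entry into mitosis (chromosome 5, 69167010 to 69178245), was at 128, 204 and 210 CPM at 24 h, against 297, 332 and 371 CPM at 2 h. The highest 24 h sample was below the lowest 2 h sample, and replicate 1 was lowest at each time. Its log2 fold change was -0.88 (SE 0.16, edgeR adjusted p = 0.0234). PLK1, the kinase that acts with it at mitotic entry and in the spindle (chromosome 16, 23677656 to 23690367), was at 47.6, 83.9 and 97.7 CPM at 24 h, against 127, 171 and 198 CPM at 2 h. It showed the same order of replicates without overlap, and its log2 fold change was -1.12 (SE 0.23, edgeR adjusted p = 0.0482). CDC20, which activates the ubiquitin ligase that ends metaphase (chromosome 1, 43358955 to 43363203), was at 175, 256 and 283 CPM at 24 h and 336, 419 and 431 CPM at 2 h, with a log2 fold change of -0.73 (SE 0.14, edgeR adjusted p = 0.0416). KIF4A, a chromosome-bound kinesin (chromosome X, 70290090 to 70420832), was at 48.9, 68.2 and 69.1 CPM at 24 h and 82.7, 92.3 and 92.6 CPM at 2 h, a log2 fold change of -0.52 (SE 0.11, edgeR adjusted p = 0.0466).

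**Figure D2:**
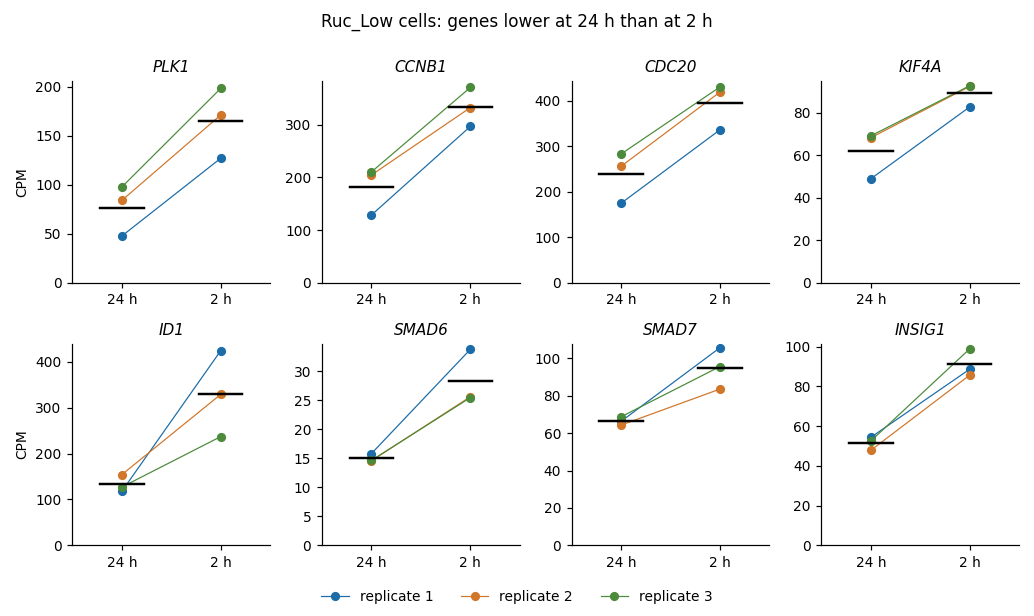
CPM (from 0) of 8 genes lower at 24 h, 1 panel a gene, with each Ruc_Low sample as a point at 24 h (left) or 2 h (right), a coloured line joining samples of the same replicate and a black bar at each mean. CCNB1 reached at most 210 CPM at 24 h and was at least 297 CPM at 2 h, and PLK1 at most 97.7 CPM at 24 h and at least 127 CPM at 2 h.

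These 4 genes were the members called in a list of 70 genes of the G2 and M phases, 69 of which were tested: 0 rose and 4 fell, or 21 with the replicate block. All 69 log2 fold changes were below 0 in this fit, between -1.41 and -0.01, with a median of -0.41, against -0.0022 over all genes. A sign shared by most members was also seen in lists where edgeR called 0 genes. Of 54 nuclear genes of the respiratory chain 52 were below 0 (median -0.18), and of 76 ribosomal protein genes 68 (median -0.16). With the block and transcript length their medians were -0.05 and -0.04, and that of the G2 and M list was -0.45. Of the 69, 22 had all 3 samples at 24 h below all 3 at 2 h, against 5.97% of all genes tested. The median of the list was -0.53, -0.38 and -0.42 in replicates 1, 2 and 3, so the downward shift was present in each pair. KIF20A, a kinesin of cytokinesis, was at 24.1, 38.3 and 51.4 CPM at 24 h and 72.7, 98.7 and 130 CPM at 2 h. KIF20A had a log2 fold change of -1.41 (edgeR adjusted p = 0.145, and 0.000164 with the block). AURKA, the centrosome kinase, was at 38.4, 68.3 and 75.2 CPM at 24 h and 85.8, 111 and 130 CPM at 2 h (edgeR adjusted p = 0.232, and 0.011 with the block). CCNB2, the second B cyclin, was at 44, 74 and 86.7 CPM at 24 h and 94.9, 111 and 132 CPM at 2 h (edgeR adjusted p = 0.418, and 0.0184 with the block). TPX2, a spindle assembly factor, was at 187, 294 and 328 CPM at 24 h and 290, 353 and 412 CPM at 2 h. Its groups overlapped, and it passed neither fit (edgeR adjusted p = 0.598, and 0.0766 with the block).

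PIF1, SAPCD2 and GAS2L3, which are not on that list, also fell. PIF1, a DNA helicase whose RNA varies with the cell cycle, was at 5.13, 10.4 and 11 CPM at 24 h and 18.3, 29.2 and 27.4 CPM at 2 h, 0.353 times its 2 h level. SAPCD2, which acts in spindle orientation, was at 45.7, 62.5 and 66.4 CPM at 24 h and 88.1, 116 and 110 CPM at 2 h. GAS2L3, a linker of actin and microtubules in cytokinesis, was at 7.55, 11.9 and 11.8 CPM at 24 h and 16.6, 22.1 and 24.2 CPM at 2 h. In all 3 genes the times did not overlap. The S phase list lay near the median of all genes: of 56 genes of DNA replication, edgeR called 0 higher and 0 lower, with 1 higher and 3 lower at an unadjusted p below 0.05, and 0 higher and 2 lower by DESeq2 and with the block. Their median log2 fold change was -0.03. Of the 56, 9 were lower in every 24 h sample than in any 2 h sample, against 5.97% of all genes tested. Another 3 were higher in every 24 h sample, against 7.32% of all genes tested.

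**Figure D3:**
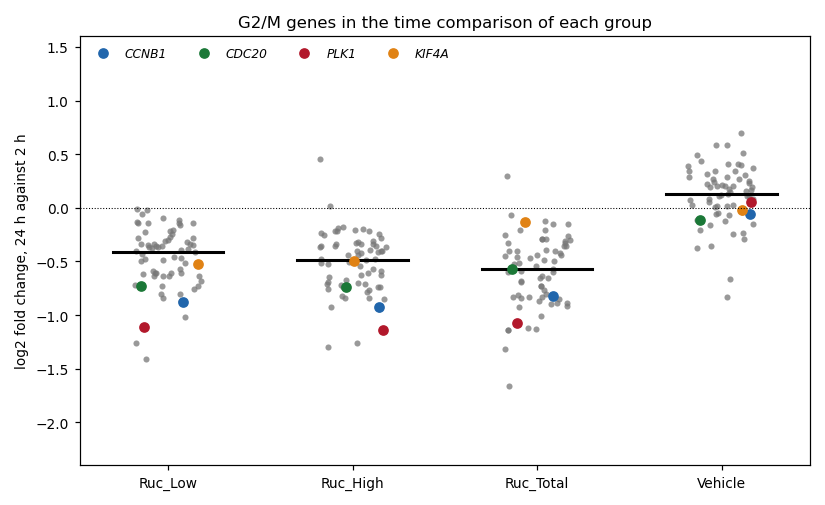
Log2 fold change, 24 h over 2 h, of the 69 genes of the G2 and M list in each group, 1 grey point a gene, with a black bar at the median and the 4 called genes in colour. The median was -0.41 in Ruc_Low, -0.49 in Ruc_High, -0.57 in Ruc_Total and 0.13 in Vehicle.

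The promoters of the 4 mitotic genes called are shown with the elements by which the DREAM complex and NF-Y are known to time such genes, both of which all 4 carry. The windows run from 250 bases before to 50 bases after the start of transcription in RefSeq (GRCh38.p14), all on the plus strand, 5′ to 3′. Capitals mark TTTGAA or TTTAAA (the cell cycle homology region) and CCAAT, each read on both strands, so TTCAAA and ATTGG also count; TTTAAA is its own reverse. CCNB1 lies at chr5:69166900-69167199, PLK1 at chr16:23678639-23678938, CDC20 at chr1:43358731-43359030 and KIF4A at chrX:70289854-70290153.
CCNB1: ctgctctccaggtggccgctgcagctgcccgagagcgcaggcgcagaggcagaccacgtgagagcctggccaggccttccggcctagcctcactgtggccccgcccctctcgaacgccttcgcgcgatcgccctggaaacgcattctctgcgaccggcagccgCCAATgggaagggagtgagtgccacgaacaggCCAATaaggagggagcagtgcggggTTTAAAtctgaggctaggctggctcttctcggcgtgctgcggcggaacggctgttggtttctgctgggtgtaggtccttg
PLK1: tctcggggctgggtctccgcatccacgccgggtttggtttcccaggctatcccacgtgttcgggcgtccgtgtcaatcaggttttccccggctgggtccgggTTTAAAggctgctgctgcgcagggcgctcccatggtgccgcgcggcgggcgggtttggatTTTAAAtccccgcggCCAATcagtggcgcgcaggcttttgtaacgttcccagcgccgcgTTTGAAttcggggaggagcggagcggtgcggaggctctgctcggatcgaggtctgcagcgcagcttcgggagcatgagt
CDC20: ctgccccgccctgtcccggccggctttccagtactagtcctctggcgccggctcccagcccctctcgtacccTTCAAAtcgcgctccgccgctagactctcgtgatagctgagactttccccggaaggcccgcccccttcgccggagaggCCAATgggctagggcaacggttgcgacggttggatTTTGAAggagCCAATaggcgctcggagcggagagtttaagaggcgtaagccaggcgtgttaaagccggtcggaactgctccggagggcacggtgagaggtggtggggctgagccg
KIF4A: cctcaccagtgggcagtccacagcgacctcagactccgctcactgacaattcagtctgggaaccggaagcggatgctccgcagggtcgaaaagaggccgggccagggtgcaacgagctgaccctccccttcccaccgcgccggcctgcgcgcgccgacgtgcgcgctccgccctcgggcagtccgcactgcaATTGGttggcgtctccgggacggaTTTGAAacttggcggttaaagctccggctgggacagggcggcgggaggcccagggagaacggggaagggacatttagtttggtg
In CCNB1 the TTTAAA lies 30 bases before the start, with CCAAT at 87 and 55 bases before it. In PLK1 a TTTGAA lies 29 bases before the start, with TTTAAA at 148 and 88 bases and CCAAT at 73, and KIF4A has TTTGAA at 34 and ATTGG at 58 bases. CDC20 has TTTGAA at 65 bases, its reverse TTCAAA at 178 bases and CCAAT at 100 and 55 bases. Windows matched by symbol were at hand for 60 genes of the list, of which 49 (81.67%) held the first element, 49 held CCAAT and 39 (65%) held both. Of all 35116 windows, counted singly, 23.99% held the first, 34.61% CCAAT and 9.27% both. List members were counted by gene, with any window of the gene holding the element. Counted that way, the 12781 tested genes with a window gave 21.76% for the first, 42.34% for CCAAT and 9.19% for both. Among the 17 list members with a window that were lower with the replicate block, 14 (82.35%) held both. A match of letters is a description of the window and not a measured site.

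For CHAC1 the same kind of window, at chr15:40953221-40953520 on the plus strand, is shown because it was the member of the stress list that rose without the block. Capitals mark TGATG, part of the element that ATF4 dimers bind, read on both strands, so that CATCA counts.
CHAC1: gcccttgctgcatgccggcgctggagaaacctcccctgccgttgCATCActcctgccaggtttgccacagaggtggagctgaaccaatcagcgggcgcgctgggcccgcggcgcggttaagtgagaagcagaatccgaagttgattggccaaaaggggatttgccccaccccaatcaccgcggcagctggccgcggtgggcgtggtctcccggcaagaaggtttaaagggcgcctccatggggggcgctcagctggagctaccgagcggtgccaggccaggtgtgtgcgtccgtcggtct
The match is a CATCA 206 bases before the start. CHAC1, which rose, also holds both elements marked in the mitotic windows, left in lower case here. Of the 25 stress genes with a window, 10 (40%) held TGATG, against 32.91% of all windows and 28.64% of the tested genes with a window.

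ID1, SMAD6 and SMAD7, which are known to respond to bone morphogenetic proteins (BMP), fell. They were set side by side after their values were seen, and no list of such genes was fixed or counted. ID1, a BMP target that blocks basic helix-loop-helix factors (chromosome 20, 31605283 to 31606515), was at 118, 154 and 127 CPM at 24 h, against 424, 329 and 237 CPM at 2 h. The 2 h samples spread widely but all lay above those at 24 h, and ID1 was at 0.403 times its 2 h level (log2 fold change -1.31, SE 0.25, edgeR adjusted p = 0.0385). SMAD6, an inhibitor of BMP signalling that the pathway itself induces, was at 15.8, 14.6 and 14.6 CPM at 24 h and 33.7, 25.6 and 25.4 CPM at 2 h (log2 fold change -0.91, SE 0.16, edgeR adjusted p = 0.0195). SMAD7, its counterpart for BMP and TGF-beta, was at 66.3, 64.3 and 68.8 CPM at 24 h and 106, 83.6 and 95.6 CPM at 2 h (log2 fold change -0.51, SE 0.10, edgeR adjusted p = 0.0292). ID1 was also lower in Vehicle cells, at 220, 242 and 229 CPM at 24 h against 372, 373 and 295 CPM at 2 h. SMAD7 in Vehicle was at 61.5, 56.8 and 59.4 CPM at 24 h and 70.8, 65.1 and 73 CPM at 2 h. The difference of the changes, Ruc_Low minus Vehicle, was -0.72 for ID1 (95% interval -1.48 to 0.03) and -0.28 for SMAD7 (-0.57 to 0.009). For SMAD6 the difference was -0.72 (95% interval -1.20 to -0.23). ID1, SMAD6 and SMAD7 were not among the 2 genes that edgeR called for this difference without the block. The intervals are not adjusted for the number of genes. Of the 52 genes called for their change in Ruc_Low, 36 had an interval of this difference that excluded 0. Related genes that did not pass without the block were ID2, at 14.7, 6.13 and 6.74 CPM at 24 h and 29.7, 15.1 and 19 CPM at 2 h, and NOG, a secreted BMP antagonist, at 16.5, 15.4 and 13.1 CPM at 24 h and 37.9, 34.5 and 28.2 CPM at 2 h. For each the edgeR adjusted p was 0.137. Neither overlapped, though the highest 24 h sample of ID2, 14.7 CPM, lay just under its lowest 2 h sample, 15.1 CPM.

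In the list of 34 tested genes of cholesterol metabolism under SREBP, the sterol-regulated transcription factor, 0 rose and 1 fell, or 4 with the block. The median log2 fold change was -0.21. INSIG1, the sterol-regulated protein that holds SREBP in the endoplasmic reticulum, was at 54.4, 47.9 and 52.6 CPM at 24 h and 88.7, 85.7 and 99.0 CPM at 2 h. The log2 fold change of INSIG1 was -0.82 (SE 0.13, edgeR adjusted p = 0.00904). INSIG1 also fell in Vehicle cells, where its log2 fold change was -1.11. The difference of the changes, Ruc_Low minus Vehicle, was 0.29 with a 95% interval of -0.11 to 0.69.

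Of the remaining genes that fell, TENT5B, a poly(A) polymerase, was at 5.42, 6.12 and 5.24 CPM at 24 h and 12.9, 21 and 14 CPM at 2 h, 0.351 times its 2 h level (edgeR adjusted p = 0.00136). MAB21L4 was at 37.2, 44 and 39.2 CPM at 24 h and 81.4, 106 and 78.1 CPM at 2 h (log2 fold change -1.14). KCNF1, a subunit that modifies potassium channels, was at 9.98, 13.6 and 13.4 CPM at 24 h and 22.5, 28.5 and 28 CPM at 2 h (log2 fold change -1.09). All 3 genes were lower in every 24 h sample than in any 2 h sample. RBM14, an RNA-binding protein of paraspeckles, was at 117, 77.8 and 111 CPM at 24 h and 202, 168 and 197 CPM at 2 h (log2 fold change -0.89, edgeR adjusted p = 0.0124).

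Other lists held few calls or none. By edgeR without the block, 0 genes were higher and 0 lower among 42 genes of homologous recombination and Fanconi anaemia repair (2 higher and 1 lower at an unadjusted p below 0.05, 1 higher and 0 lower by DESeq2 and with the block), 34 PARP and base excision repair genes (2 and 1 unadjusted, 0 and 0 by DESeq2, 2 and 0 with the block) and 28 p53 targets (3 and 0 unadjusted, 0 and 0 by DESeq2). Their median log2 fold changes were 0.10, 0.02 and 0.09. Among 22 heat shock genes edgeR also called 0 (0 higher and 3 lower unadjusted, 0 and 0 by DESeq2), with a median of -0.17. Of the 22, 6 genes were lower in every 24 h sample than in any 2 h sample, against 5.97% of all genes tested. Among 31 targets of NF-kB edgeR called 0 (3 and 0 unadjusted, 1 and 0 by DESeq2), at a median of 0.12, where the block gave 2 higher. Lysosomal genes, a subject of the study, were likewise uncalled by edgeR: 0 of 52 genes of the lumen with a median of -0.06 (1 higher and 4 lower unadjusted, 0 and 1 by DESeq2) and 0 of 35 of the membrane with -0.05 (1 and 2 unadjusted, 0 and 2 by DESeq2, 0 and 1 with the block). The call count was also 0 for 19 genes of the proton pump with a median of -0.02 (0 and 1 unadjusted, 0 and 0 by DESeq2) and for 36 of autophagy and its transcription factors with 0.06 (4 and 1 unadjusted, 1 and 0 by DESeq2, 2 and 0 with the block). CTSD, the aspartic protease of the lysosome, was at 194, 226 and 193 CPM at 24 h and 230, 291 and 226 CPM at 2 h (log2 fold change -0.28, edgeR adjusted p = 0.511), with the groups meeting near 226 CPM. TFEB, a transcription factor of lysosomal genes, averaged 4.68 ± 0.651 CPM at 24 h and 3.47 ± 0.676 CPM at 2 h (SD, n = 3 each, edgeR adjusted p = 0.685). LAMP1 averaged 252 ± 35.2 CPM at 24 h and 270.2 ± 38.1 CPM at 2 h, and LAMP2 98.3 ± 12.3 CPM at 24 h and 94.3 ± 18.8 CPM at 2 h (SD, n = 3 each). Both are membrane proteins of the lysosome, and their means differed by less than 1 SD. PARP1, the drug's main target, averaged 60.3 ± 12.4 CPM at 24 h and 56.5 ± 23.5 CPM at 2 h (SD, n = 3 each, edgeR adjusted p = 0.99).

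**Figure D4:**
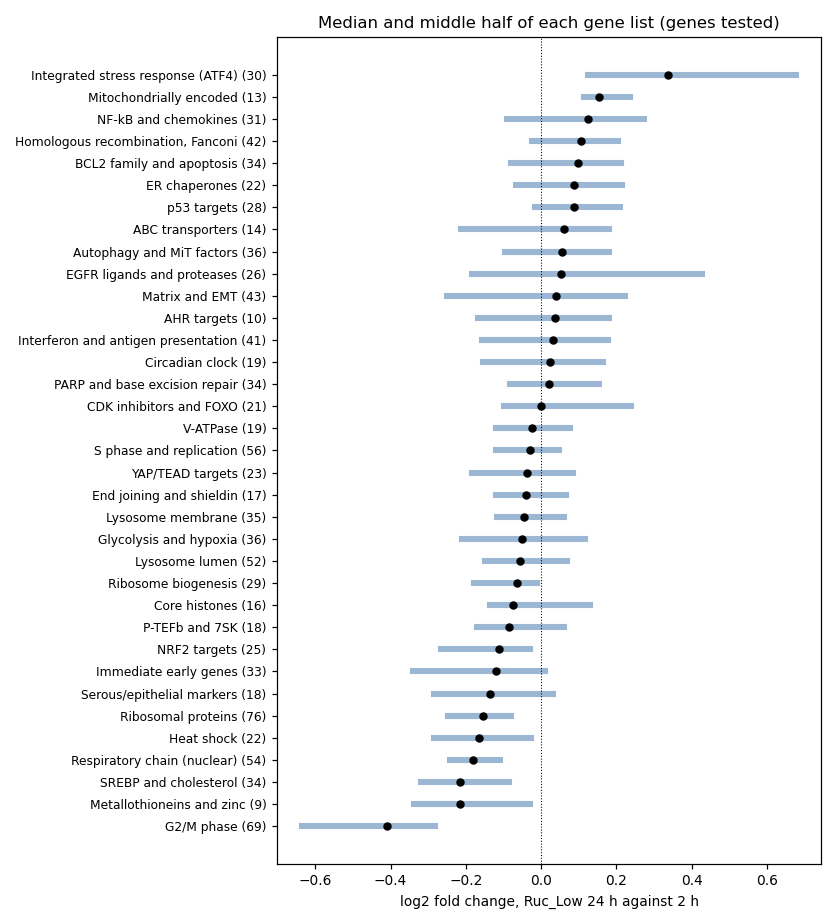
Log2 fold change, 24 h over 2 h, of each gene list in the Ruc_Low samples, with a point at the median, a bar over the middle of the list (lower to upper quartile) and the number of genes tested in brackets. The G2 and M list has the lowest median, -0.41, and the integrated stress response list the highest, 0.34.

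In some lists the replicates disagreed. The median of 13 mitochondrially encoded genes was 0.80 in replicate 1, -0.19 in replicate 2 and -0.10 in replicate 3, and 0.15 in the fit. The share of counts in these genes moved with it, at 3.93%, 2.01% and 2.94% at 24 h and 2.22%, 2.15% and 3.10% at 2 h. For 76 ribosomal protein genes the pair medians were -0.35, -0.15 and 0.06. The mean length of the transcripts counted was 3079, 2984 and 2995 bases at 24 h and 2912, 2810 and 3082 bases at 2 h, a measure whose part in these results was not tested beyond the alternatives with a length term.

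The changes were then set beside those of the other groups, which were fitted with the same model. Between 24 h and 2 h, edgeR called 42 genes (0.212%) in Ruc_High, 372 (1.88%) in Ruc_Total and 6 (0.0303%) in Vehicle. With the replicate block, where Ruc_Low had 456, it called 532 (2.68%) in Ruc_High, 2355 (11.9%) in Ruc_Total and 1640 (8.27%) in Vehicle. With the block and transcript length, where Ruc_Low had 964, it called 711 in Ruc_High, 4590 in Ruc_Total and 6 in Vehicle. In Vehicle the mean transcript length was 3120, 3107 and 3231 bases at 24 h and 2729, 2747 and 3078 bases at 2 h. Time and length thus ran together in Vehicle, and the part of each in its calls was not tested. The 52 genes called in Ruc_Low were chosen for their change there, which by itself favours a larger change in Ruc_Low. The following values are therefore descriptions, and their calls are those of the fit without the block. Of the 29 that rose, 29 were also above 0 in Ruc_High and 29 in Ruc_Total, with 13 called in Ruc_High and 22 in Ruc_Total. In Vehicle 25 were above 0, with 0 called by edgeR. The median log2 fold change of the 29 was 0.77 in Ruc_Low, 0.66 in Ruc_High, 0.67 in Ruc_Total and 0.17 in Vehicle. Of the 23 that fell, 23 were below 0 in Ruc_High and 23 in Ruc_Total, with 15 called in each, and 21 were below 0 in Vehicle, where 3 were called (INSIG1, KCNF1 and POU3F1). Their medians were -0.85 in Ruc_Low, -0.82 in Ruc_High, -0.82 in Ruc_Total and -0.24 in Vehicle.

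**Figure D5:**
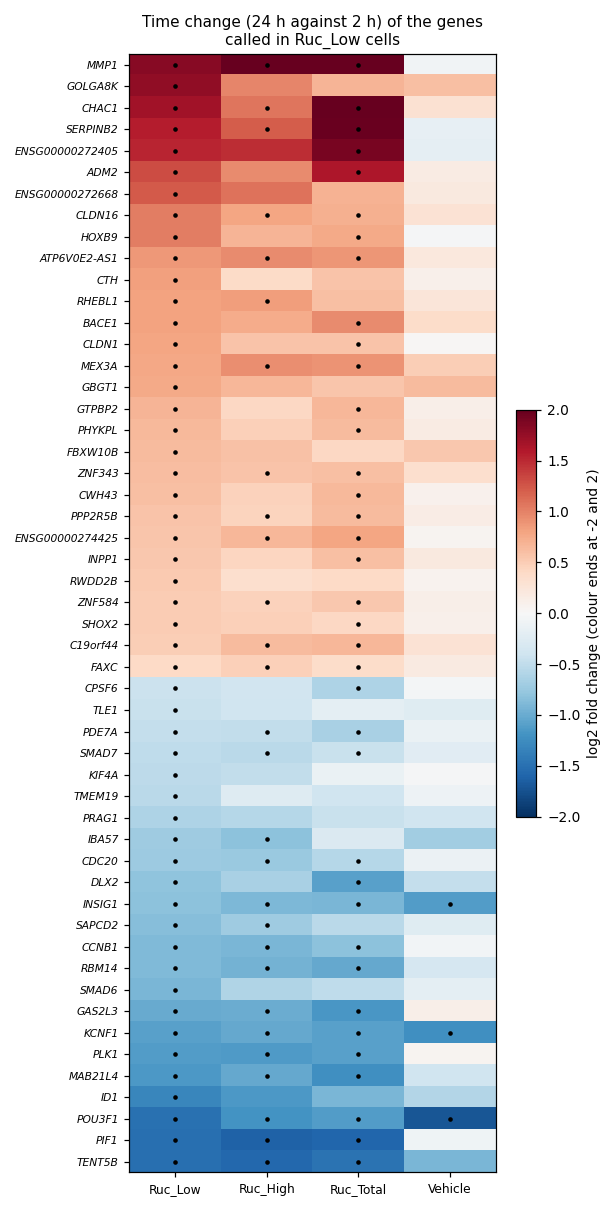
Heat map of the log2 fold change, 24 h over 2 h, of the 52 genes called in Ruc_Low (rows) in Ruc_Low, Ruc_High, Ruc_Total and Vehicle (columns), red above 0 and blue below, with a dot where edgeR called the gene in that group. The 29 that rose have a median of 0.77 in Ruc_Low and 0.17 in Vehicle, and the 23 that fell one of -0.85 in Ruc_Low and -0.24 in Vehicle.

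The difference of the time changes was tested gene by gene. Between Ruc_Low and Ruc_High, edgeR called 0 genes, with 187 at an unadjusted p below 0.05 and 6 by DESeq2, and 0 with the block. That miss does not show that the gates changed alike: for the 52 genes the 95% intervals of Ruc_Low minus Ruc_High all included 0, but reached 0.24 to 0.91 log2 units to either side. CHAC1 differed by 0.60 (95% interval -0.05 to 1.25), PLK1 by 0.02 (-0.67 to 0.71) and CCNB1 by 0.04 (-0.44 to 0.52). Between Ruc_Low and Ruc_Total, edgeR likewise called 0 genes, with 762 at an unadjusted p below 0.05 and 12 by DESeq2, and the interval of the difference included 0 for 49 of the 52.

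Between Ruc_Low and Vehicle, 2 genes (0.0101%) differed in their time change, SERPINB2 and C4A, with 26 (0.131%) called when the block was fitted and 20 by DESeq2. SERPINB2 rose in Ruc_Low and was at 14, 15.5 and 12 CPM at 24 h and 12.8, 18.1 and 15.5 CPM at 2 h in Vehicle, where the times overlapped. The change in Ruc_Low exceeded that in Vehicle by 1.73 log2 units (95% interval 1.19 to 2.28, edgeR adjusted p = 0.0347). At 2 h its level in Ruc_Low, 6.66 to 10.7 CPM, was below that in Vehicle, and at 24 h, 23 to 26.8 CPM, above it. In this comparison of levels between Ruc_Low and Vehicle, sorting cannot be told apart from the drug. SERPINB2 in Ruc_Total, treated and unsorted, was at 64.8, 84.3 and 56.3 CPM at 24 h and 16.4, 19.3 and 16.4 CPM at 2 h. In Ruc_High it was at 39.6, 38.9 and 35.9 CPM at 24 h and 13.5, 17.4 and 18.4 CPM at 2 h. The 4 mitotic genes did not pass the test of Ruc_Low against Vehicle without the block. For PLK1 the difference was -1.17 (95% interval -1.86 to -0.48, edgeR adjusted p = 0.749, and 0.0243 with the block), and for CCNB1 -0.82 (95% interval -1.30 to -0.34, edgeR adjusted p = 0.749, and 0.0642 with the block). Of the 69 genes of the G2 and M list, 63 had a lower time change in Ruc_Low than in Vehicle, and 4 were called with the block (PLK1, KIF20A, DLGAP5 and KIF14). Over all genes tested the median of this difference was 0.05. Against Ruc_High, 17 of the 69 had a lower time change in Ruc_Low. For CHAC1 the difference was 1.37 (95% interval 0.72 to 2.03, edgeR adjusted p = 0.589, and 0.0567 with the block).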

How the data were processed

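RNA of PEO1 cells was sequenced in 72 libraries, 9 for each of 8 groups (Ruc_Low, Ruc_High, Ruc_Total and Vehicle, each at 24 h and 2 h). The authors trimmed reads with cutadapt 4.7 and quantified transcripts with Salmon (version and library type are not given in the sources used here), and the submitters' notes also name DESeq2 1.44.0. The deposited files hold estimated counts, TPM and effective lengths per transcript, 257369 a file. Of these, 194437 matched GENCODE 29 and were summed by gene. The 62932 others, 9.65 to 11.63% of the reads of the Ruc_Low libraries, were left out. The 3 libraries of a replicate differed by more than sampling noise (chi-square per degree of freedom at least 8.43), so they were summed and counted as 1 sample, and sums were rounded to whole numbers.

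Genes passed edgeR's filterByExpr. Counts were scaled by TMM and fitted with edgeR 4.0.16 (R 4.3.3; quasi-likelihood test) over all 24 samples with group as the term, and p-values were Benjamini-Hochberg adjusted over 19834 genes with a threshold of 0.05. SEs are the log2 fold change over the square root of F, intervals are 95% with 16 residual degrees of freedom, and CPM are TMM-scaled. A prior count of 2 was used for pair differences. The alternatives used limma 3.58.1, DESeq2 1.42.0, a replicate block, other filters, lengths and sample subsets. The edgeR fits with and without the block were tested on simulated data. Each recovered 70 of 100 genes changed by 1 log2 unit and 10 of 100 changed by 0.5. Of the unchanged genes, the fit without the block called 5 and the fit with it 4. No replicate effect was simulated, so this cannot tell which fit is right for paired samples. The replicates are stated to come from different days. Deviations of same-numbered Ruc_Low samples correlated at 0.259 to 0.419, so the numbers were taken to pair the samples. Those of other-numbered samples correlated at -0.345 to -0.0859, values that are not independent of the same-numbered ones. The main fit did not use this pairing, and the fit with the replicate block did.

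Named genes were the 12 with the largest change in each direction among calls of at least 5 CPM on average, up to 4 of each list and genes of interest to the study; others, such as KIF20A, NUPR1 and SMAD7, were added after their values were seen. The comparison and the gene lists were chosen with earlier results of these data known. Promoter windows came from RefSeq, and 12781 of the genes tested matched one by symbol.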

Additional observations from a re-analysis of the deposited data

Results flagged for a closer look

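Depth and library measures were compared among the 9 Ruc_Low libraries of each time, in 10 comparisons. In these, 4 values stood apart from the rest, where chance gives about 1 in 20 for a single comparison. Of the 4, 3 belong to 1 library, so the 4 are not independent. A replicate 1 library at 24 h had 27747511 reads, with a gap to its neighbour of 0.57 of the range. One replicate 2 library at 2 h stood apart in 3 measures, with 17391033 reads, 31523 genes detected and a mean transcript length of 2351 bases. Without that library 32 genes were higher and 27 lower.

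The time change differed between Ruc_Low and Vehicle for SERPINB2, by 1.735 log2 units, and for C4A, by 6.86 (edgeR adjusted p = 0.0349). C4A, a complement gene nearly identical to C4B, so that its reads are uncertain, was at 0.902, 1.37 and 0.736 CPM at 24 h and 0.698, 0.344 and 0.380 CPM at 2 h in Ruc_Low, and at 0, 0 and 0.022 CPM at 24 h and 0.567, 0.468 and 0.391 CPM at 2 h in Vehicle. With Vehicle at or near 0 at 24 h, the fitted difference is no measure of size.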

How the results depend on the processing

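The counts given below are genes higher, genes lower, genes whose change differed from Vehicle, G2 and M genes lower, and stress response genes higher, in that order, and were 29, 23, 2, 4 and 1 as reported. With the replicate block they were 262, 194, 26, 21 and 6. With the block and transcript length they were 513, 451, 21, 30 and 11, and 1 gene differed from Ruc_High and 4 from Ruc_Total. DESeq2 gave 165, 138, 20, 11 and 4, with 6 differing from Ruc_High and 12 from Ruc_Total. An effective length offset gave 4, 4, 1, 1 and 1, and limma on log2(TPM + 1) gave 17, 4, 1, 1 and 1. No filter on low counts gave 10, 15, 2, 3 and 2, and a filter of 1 CPM in 3 samples 36, 38, 2, 5 and 2. Fitting the 6 Ruc_Low samples alone gave 0 higher, 1 lower, 0 G2 and M genes and 0 stress genes (1315 genes at an unadjusted p below 0.05), and with the block 3, 23, 4 and 0. Leaving out 1 replicate gave 0 to 15 higher, 0 to 18 lower, 0 to 1 differing from Vehicle, 0 to 4 G2 and M genes and 0 to 2 stress genes. Without the library of lowest total the stress count was 2. Chosen after seeing the data, leaving out the 4 libraries of mean length under 2800 bases gave 30, 28, 2, 4 and 2; fitting only the 12 sorted samples gave 5 higher, 7 lower, 0 G2 and M genes and 1 stress gene, and with the block 202, 192, 19 and 7. The cause of these differences was not tested. With the block and transcript length the median log2 fold change of the mitochondrially encoded genes was -0.02 (0.15 as reported) and of the proton pump genes 0.02 (-0.02 as reported). Between 61 and 69 of the 69 G2 and M genes were below 0 in each setting. The 52 called genes passed in 6 to 15 of the 17 settings (median 8.5). SERPINB2 passed in 15, CHAC1 and PLK1 in 13, CCNB1 in 10, CDC20, CTH, SMAD7 and BACE1 in 8 and KIF4A in 6. With 3 replicates a time, few genes of small change can pass.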
